A study of Saccharomyces cerevisiae with 8 samples.

Results

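Cytochrome c and the enzymes that oxidise lactate form a short branch of the yeast respiratory chain. The 6 genes described here are CYC1 and CYC7, which encode the isoforms of cytochrome c, CYB2, which encodes L-lactate cytochrome c oxidoreductase, and DLD1, DLD2 and DLD3, which encode D-lactate dehydrogenases. They were chosen by gene name, and each was found as 1 probe with 2 spots among the 6256 probes of the array. Their systematic names on the array are YJR048W (CYC1), YEL039C (CYC7), YML054C (CYB2), YDL174C (DLD1), YDL178W (DLD2, also called AIP2) and YEL071W (DLD3). In reference assembly R64 they lie on chromosomes X, V, XIII, IV, IV and V, in the same order.

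The study set the pressure-sensitive budding yeast mutant a924E1 against KA31a, the strain it came from. Each group held 4 samples, which the design text describes as biologically independent, and all had grown for 48 h in YPD, a rich glucose medium. The labels name no mutated gene and no pressure treatment of these cultures. RNA of each culture was labelled with Cy5 and hybridised to 1 one-colour array, and the arrays carry the numbers 1, 3, 5 and 7 (mutant) and 2, 4, 6 and 8 (parent).

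In yeast, cytochrome c shuttles electrons through the intermembrane space of mitochondria to cytochrome oxidase. It takes them from the bc1 complex, and also directly from Cyb2 (flavocytochrome b2) and Dld1, so that lactate can feed the chain without passing through the earlier complexes. Iso-1, from CYC1, is the main form in aerobic cells, and iso-2, from CYC7, is relatively favoured when oxygen is low. Dld2 lies in the mitochondrial matrix and Dld3 in the cytosol, both also act on D-2-hydroxyglutarate, and DLD3 is a known target of the retrograde response, by which yeast nuclei answer mitochondrial dysfunction.

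Levels are log2 intensities after background correction and quantile normalization between arrays, averaged over the 2 spots, and differences are mutant minus parent on that scale. The arrays differed in brightness: the median spot signal over local background was 5 to 112 intensity units on the mutant arrays and 15 to 182 units on the parent arrays. Mutants 5 and 7 and parent 8 were scanned at gain 700, and the other 5 arrays at gain 600. The criterion for a probe being above background was a signal-to-noise ratio no lower than 3 at each of its spots, and 5 of the 6 genes met it on all 8 arrays. DLD3 met it on 3 of 4 mutant and 4 of 4 parent arrays, and no spot of the 6 genes had saturated pixels. Mutant 7 was the dimmest array, with a median of 5 units and 602 probes above background, against 1526 to 5272 on the others. A comparison over the 582 genes above background on all 8 arrays leaves out genes too dim on mutant 7. Over these genes, mutant 5 stood apart from the other mutant arrays (SD of the log2 difference 0.47 to 0.54, against 0.17 to 0.27 among the others). Parent 2 likewise stood apart from the other parent arrays (0.44 to 0.52, against 0.20 to 0.33), so values without these arrays are given below where they matter. Strain and slide column cannot be told apart, because each strain's arrays filled a column of their own. Precision is set by there being 4 arrays a strain.

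Of the 6 genes, CYC7, CYB2 and DLD2 were higher in the mutant, DLD3 was lower, and CYC1 and DLD1 did not pass the test. At a limma adjusted p under 0.05, 26.6% of the 6256 genes were called, 12.7% as higher and 14.0% as lower. Of the 582 genes that met the background criterion on every array, 34.7% rose and 16.8% fell, with a median difference of 0.20. That filter keeps genes bright enough on mutant 7, which had 602 probes above background, so it can favour rises. For the 1536 genes that met the criterion throughout at least 1 strain, limma was fitted again with adjustment over these genes alone. That fit called 310 higher and 428 lower, with a median of -0.03. The share of rises thus differed between these gene sets, for which both the filter and the fit differed. The 3 higher calls therefore have no single share to stand against. The 4 mutant values lay wholly above or below the 4 parent values for CYC7, CYB2, DLD2 and DLD3, as they did for 29.9% of all genes. Each of these 4 genes also differed at least 2-fold, which 3.88% of all genes did as called genes. Without mutant 5 the count was 4 higher and 1 lower, and without parent 2 it was 3 higher and 1 lower.

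**Figure D1:**
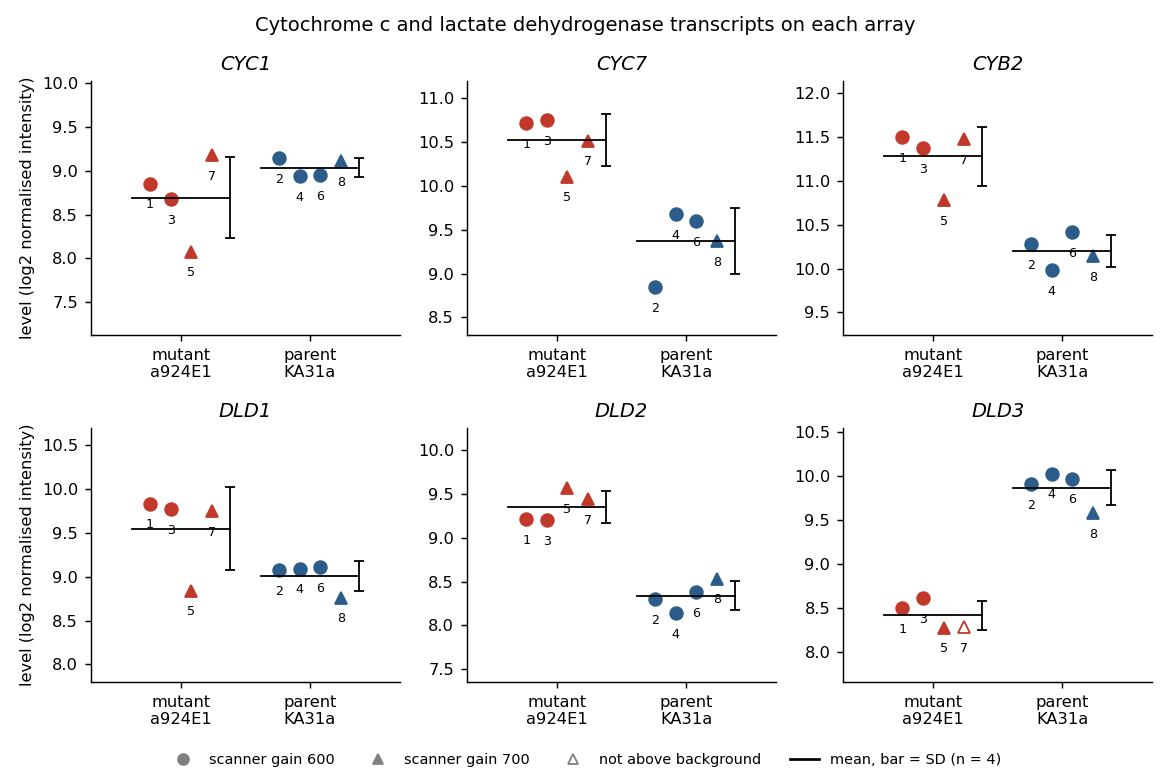
Level of the 6 genes on each array, as log2 normalised intensity, in mutant a924E1 (red) and parent KA31a (blue). Small numbers are array numbers, circles and triangles mark scanner gain 600 and 700, the open triangle is the spot pair not above background, and lines and bars give mean and SD of 4 arrays. The strains do not overlap for CYC7, CYB2, DLD2 and DLD3, and mutant 5 lies lowest in its strain for CYC1, CYC7, CYB2, DLD1 and DLD3.

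CYC7, the gene of iso-2-cytochrome c, rose in the mutant. Its level was 10.71, 10.75, 10.10 and 10.52 on mutant arrays 1, 3, 5 and 7, and 8.85, 9.67, 9.59 and 9.37 on parent arrays 2, 4, 6 and 8. Every mutant array was higher than every parent array, with mutant 5 lowest in its strain and parent 2 lowest in its own. The means were 10.52 ± 0.30 in the mutant and 9.37 ± 0.37 in the parent (SD, n = 4 each), a difference of 1.15 ± 0.19 (SE), or 2.22-fold (limma adjusted p = 0.00131). This was the rise of rank 28 among the 6256 genes. Within each of the 4 slide rows, which hold 1 mutant and 1 parent array each, the difference ran from 0.51 to 1.87.

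The size of the CYC7 change depended on which of its spots was read. The first spot gave a difference of 0.67 (adjusted p = 0.0749 by limma) and the second spot 1.62 (adjusted p = 0.0137 by limma). On parent array 2 the spots read 1898 and 543 intensity units over background, a log2 difference of -1.60 for the second minus the first, whereas the second spot was the brighter on each of the other 7 arrays. Without parent 2 the averaged spots gave a difference of 0.97 (adjusted p = 0.00186 by limma). The median absolute disagreement of the spots over the 8 arrays was 0.67 for CYC7, 0.33 for CYC1 and 0.18 over all probes.

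CYC1, the gene of iso-1-cytochrome c, did not pass the test. Its level was 8.85, 8.68, 8.07 and 9.17 on mutant arrays 1, 3, 5 and 7, and 9.14, 8.94, 8.95 and 9.11 on parent arrays 2, 4, 6 and 8. The parent arrays lay close together, while the mutant arrays spread around them, with mutant 5 lowest and mutant 7 the highest of all. The difference was -0.34 ± 0.19 (SE, n = 4 per strain, limma adjusted p = 0.232), with a 95% confidence interval from -0.77 to 0.08, which leaves room for a fall of more than 1.5-fold as well as for no change. Without mutant 5 the difference was -0.13 and without mutant 7 it was -0.50, and neither passed (limma adjusted p = 0.499 and 0.0609). The first spot alone gave -0.55 and the second spot alone -0.13, again without passing (limma adjusted p = 0.129 and 0.779). The first spot of CYC1 read brighter than the second on all 8 arrays.

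**Figure D2:**
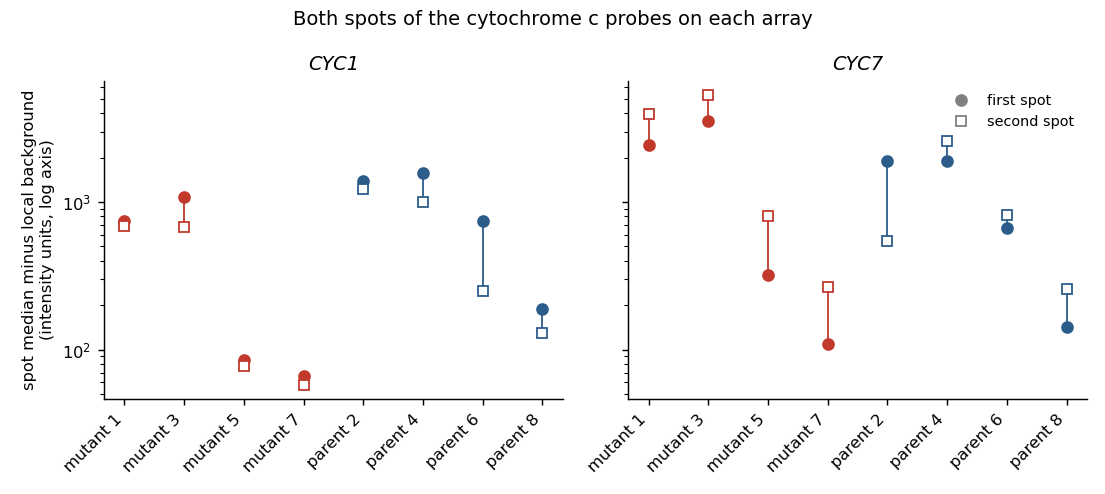
Net intensity of the first (filled circle) and second (open square) spot of the CYC1 and CYC7 probes on each array, as spot median minus local background on a log axis, with mutant arrays in red and parent arrays in blue. The first CYC1 spot is the brighter on all 8 arrays, and the second CYC7 spot is the brighter on all arrays other than parent 2, where it reads 543 against 1898 units.

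The isoforms of cytochrome c changed unequally. Within each array the log2 level of CYC7 minus that of CYC1 was 1.86, 2.07, 2.03 and 1.34 on mutant arrays 1, 3, 5 and 7, and -0.30, 0.74, 0.65 and 0.26 on parent arrays 2, 4, 6 and 8. All mutant values lay above all parent values, and the mean difference between strains was 1.49 ± 0.29 (SE, n = 4 per strain). An exact two-sided permutation test over the 8 arrays gave p = 0.0286, which is the smallest that 4 against 4 arrays allow, and 0.0286 after adjustment over the 3 gene pairs compared. Because the probes differ, these values compare the changes and not the amounts of the transcripts. The probe sequences were not used here, so binding of each isoform's transcript to the other's probe was not tested.

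CYB2, which encodes the L-lactate oxidoreductase of the intermembrane space, rose in the mutant. Its level was 11.50, 11.37, 10.78 and 11.48 on mutant arrays 1, 3, 5 and 7, and 10.28, 9.98, 10.42 and 10.14 on parent arrays 2, 4, 6 and 8. The strains did not overlap, and mutant 5 came closest to the parent. Means of 11.28 ± 0.34 in the mutant and 10.20 ± 0.18 in the parent (SD, n = 4 each) gave a difference of 1.08 ± 0.17 (SE), or 2.11-fold (limma adjusted p = 0.000734). At gain 600 the rise over parents 2 and 4 was also visible before normalization. The spots there averaged 5192 and 6529 net intensity units on mutants 1 and 3. On parents 2, 4 and 6 they averaged 3099, 2829 and 1362 units. Over all probes these mutant arrays were dimmer than parents 2 and 4 but brighter than parent 6. At gain 700 the spots averaged 841.5 and 354.5 units on mutants 5 and 7 and 358 on parent 8. The array medians there were 16, 5 and 15 units. Within slide rows the difference was 0.37 in the row of mutant 5 and 1.22 to 1.39 in the other rows.

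DLD1, which encodes the D-lactate oxidoreductase of the inner mitochondrial membrane, did not pass at 4 against 4 arrays. Its level was 9.83, 9.77, 8.84 and 9.75 on mutant arrays 1, 3, 5 and 7, and 9.08, 9.09, 9.11 and 8.76 on parent arrays 2, 4, 6 and 8. Mutants 1, 3 and 7 lay above all parent arrays, and mutant 5 lay within the parent's range. The difference was 0.54 ± 0.20 (SE, n = 4 per strain, limma adjusted p = 0.0734), with a 95% confidence interval from 0.09 to 0.98 that is not adjusted for the number of genes. This call turned on mutant 5, without which the difference was 0.77 (limma adjusted p = 0.000975). At gain 600 alone, which leaves out mutants 5 and 7 and parent 8, it was 0.71 (limma adjusted p = 0.00213), and with gain as a block it was 0.65 (limma adjusted p = 0.0251).

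The genes of both lactate oxidoreductases that pass electrons to cytochrome c were thus lowest in the mutant on the same array, mutant 5. CYB2 minus DLD1 was 1.67, 1.60, 1.94 and 1.73 on mutant arrays 1, 3, 5 and 7, and 1.20, 0.89, 1.31 and 1.38 on parent arrays 2, 4, 6 and 8. The strains did not overlap, and the mean differed by 0.54 ± 0.13 (SE, n = 4 per strain, exact two-sided permutation p = 0.0286, adjusted over the 3 pairs 0.0286). CYB2 was therefore higher relative to DLD1 in the mutant than in the parent.

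DLD2, which encodes the D-lactate dehydrogenase of the mitochondrial matrix, rose in the mutant. Its level was 9.21, 9.20, 9.57 and 9.44 on mutant arrays 1, 3, 5 and 7, and 8.30, 8.14, 8.38 and 8.53 on parent arrays 2, 4, 6 and 8. The mutant arrays all lay above the parent arrays, and mutant 5, low for the genes above, was the highest here. Means of 9.35 ± 0.18 in the mutant and 8.34 ± 0.17 in the parent (SD, n = 4 each) gave a difference of 1.02 ± 0.12 (SE), or 2.02-fold (limma adjusted p = 0.000169). Across the 4 slide rows the difference kept to a narrow range of 0.90 to 1.19.

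DLD3, which encodes the cytosolic D-lactate dehydrogenase, fell in the mutant and was the only one of the 6 genes called lower. Its level was 8.49, 8.61, 8.27 and 8.28 on mutant arrays 1, 3, 5 and 7, and 9.91, 10.03, 9.97 and 9.58 on parent arrays 2, 4, 6 and 8. The gap between the highest mutant and the lowest parent array was wider than the spread within either strain. Means of 8.41 ± 0.16 in the mutant and 9.87 ± 0.20 in the parent (SD, n = 4 each) gave a difference of -1.46 ± 0.13 (SE), so that DLD3 was 2.75-fold lower (limma adjusted p = 1.78e-05). Only 1.04% of all genes had a larger fall. Mutant 7, where the spots read 28.5 net units on average, did not meet the background criterion, and within slide rows the difference ran from -1.70 to -1.30.

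The genes of the matrix and the cytosolic enzyme thus moved in opposite directions. DLD3 minus DLD2 was -0.72, -0.59, -1.29 and -1.16 on mutant arrays 1, 3, 5 and 7, and 1.61, 1.89, 1.59 and 1.04 on parent arrays 2, 4, 6 and 8. All mutant values lay below all parent values, and the mean difference was -2.48 ± 0.24 (SE, n = 4 per strain, exact two-sided permutation p = 0.0286, adjusted over the 3 pairs 0.0286). Each of these genes had already separated the strains, in opposite directions. The permutation p was therefore fixed in advance at the smallest value allowed and adds no support. As for the other pairs, the values compare changes and not amounts, because the probes differ. Dld2 and Dld3 are related proteins, and binding of each gene's transcript to the other's probe was not tested.

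**Figure D3:**
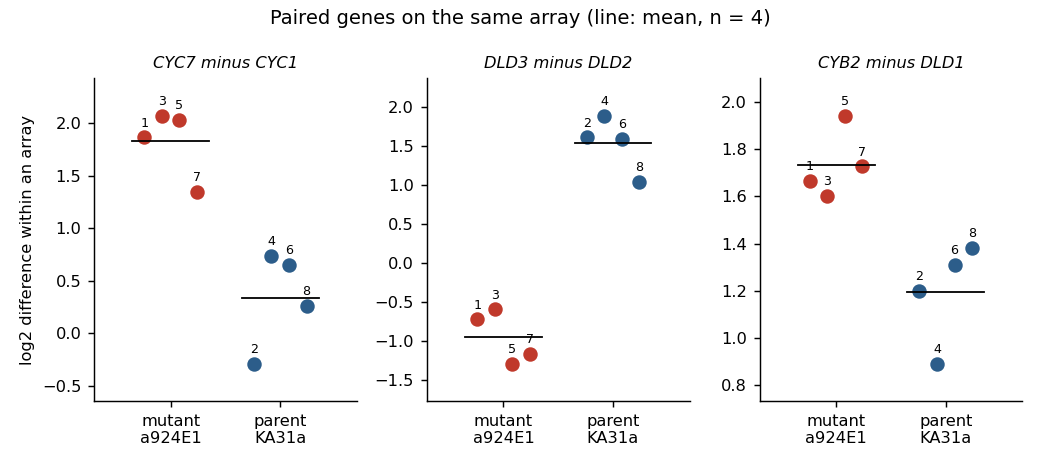
Log2 level of one gene minus that of the other on the same array for CYC7 and CYC1, DLD3 and DLD2, and CYB2 and DLD1, in mutant (red) and parent (blue), with array numbers and the mean of 4 arrays as a line. The strains do not overlap in any of the 3 pairs, and the mean difference between strains is 1.49, -2.48 and 0.54 in that order.

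The single-gene calls depended on how the arrays were scaled, while the estimates kept their direction. When each array was shifted to a common 75th percentile or median on the log2 scale, in place of quantile normalization, none of the 6 genes passed by limma, although the estimates for CYC7, CYB2, DLD2 and DLD3 stayed at 1.04, 0.89, 0.95 and -1.53 with the 75th percentile (unadjusted p = 0.0362, 0.0430, 0.00456 and 0.000649 in the limma fit). With the median, CYB2 moved from 1.08 to 0.83, DLD1 from 0.54 to 0.34, CYC1 from -0.34 to -0.51 and DLD3 from -1.46 to -1.59. When the 75th percentile was set before the offset was added, 4 genes passed as higher (CYC7, CYB2, DLD1 and DLD2) and DLD3 as lower. The 3 arrays of gain 700, with 1 parent array, gave estimates of 0.94, 0.99, 0.97 and -1.30 for these 4 genes, too few arrays for the loss of their calls to bear on stability. With 75th percentile or median scaling the calls of the pathway genes named below also ended. A shift of a whole array cancels in the difference between paired genes, so the choice between these scalings cannot bear on the pairs.

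**Figure D4:**
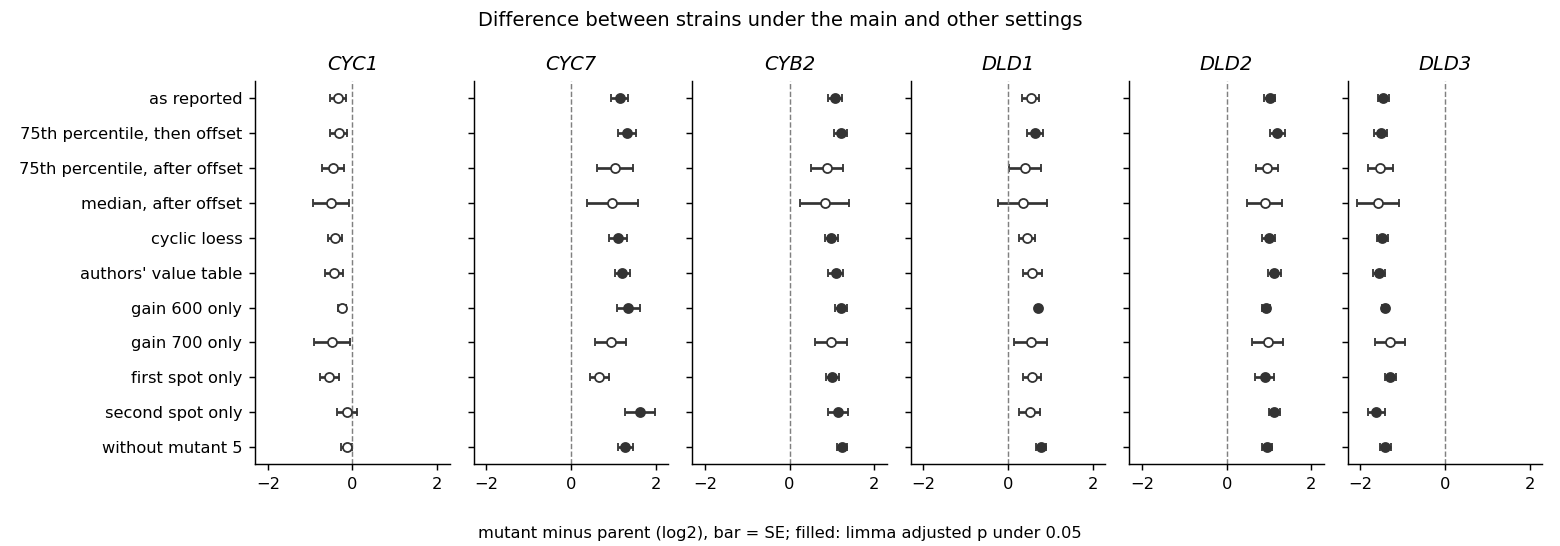
Mutant minus parent difference of each gene on the log2 scale with its SE, as reported (top) and under 10 other settings, filled where the limma adjusted p is under 0.05. The estimates of CYC7, CYB2, DLD2 and DLD3 keep their sign in every setting shown, while the 75th percentile and median scalings applied after the offset widen the error and end the calls. The gain 700 setting holds 3 arrays, and the first spot alone ends the call of CYC7.

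Around the cytochrome c isoforms, genes for the maturation and partners of the protein mostly did not pass. Of 7 measured genes 1 rose, none fell and 6 did not pass by limma, and the list median was 0.13, against 0.05 over all genes. MIA40, the import receptor of the intermembrane space, whose oxidation by Erv1 delivers electrons to cytochrome c, rose by 1.11 (limma adjusted p = 0.00190). CYC3, the heme lyase that attaches heme to cytochrome c, differed by -0.10, with a 95% interval from -0.36 to 0.17. CYT1, cytochrome c1 of the bc1 complex, differed by 0.13, and CCP1, cytochrome c peroxidase, by 0.01 with an interval from -0.27 to 0.28. CYT2, the heme lyase of cytochrome c1, differed by 0.48 (limma adjusted p = 0.151). Without mutant 5 the list held 2 calls higher.

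The list median was -0.09 for 15 genes of transcriptional regulators, with 2 calls higher, 3 lower and 10 not passing. HAP4, the activating subunit of the heme-activated Hap complex that drives CYC1 and other respiratory genes, rose by 0.94 (limma adjusted p = 0.0273). Its levels were 12.02, 11.96, 11.50 and 12.10 on mutant arrays 1, 3, 5 and 7, and 9.98, 10.98, 11.44 and 11.39 on parent arrays 2, 4, 6 and 8, so that mutant 5 lay just above the highest parent array. This call was lost under 13 of 26 alternatives, among them leaving out mutant 1, mutant 3, mutant 7 or parent 4. Without parent 2, the lowest array, the difference was 0.62 (limma adjusted p = 0.0226). Among the DNA-binding subunits of the same complex, HAP5 rose by 0.52 (limma adjusted p = 0.00639) and HAP3 fell by 0.64 (limma adjusted p = 0.00198). HAP2 differed by 0.25 and did not pass (limma adjusted p = 0.256). HAP1, the heme-responsive activator of CYC1 and CYC7, fell by 0.58 (limma adjusted p = 0.00327). Signal for HAP1, HAP3 and HAP5 met the background criterion on only 2 mutant and 3 parent arrays each, and for HAP2 on 1 and 2. MOT3 was also called lower (limma adjusted p = 0.0452), but it met the background criterion on no mutant array. That call was lost under 18 of 25 alternatives. ROX1, a heme-dependent repressor of CYC7 and other hypoxic genes, differed by -0.20 (limma adjusted p = 0.337). It met the background criterion on 2 mutant and 3 parent arrays.

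Other gene pairs in yeast also have a form expressed with oxygen and a form expressed without it. Of the 4 aerobic forms 1 fell and 3 did not pass, and of the 4 hypoxic forms all 4 did not pass, with medians of -0.07 and 0.21. COX5A, for Va, the aerobic form of subunit V of cytochrome oxidase, was 2.37-fold lower (limma adjusted p = 4.63e-05). Its hypoxic partner COX5B differed by 0.25 (95% interval -0.14 to 0.64). COX5A read 8.89 to 9.29 on the mutant arrays and 10.10 to 10.56 on the parent arrays, with no overlap. HYP2 and ANB1, which encode the forms of translation factor eIF5A, differed by 0.04 and 0.08, and ANB1 was above background on no mutant and 1 parent array. PET9 and AAC3, for ADP/ATP carriers, differed by 0.12 and 0.39, with AAC3 above background on no array, and HMG1 and HMG2, for HMG-CoA reductases, by -0.19 and 0.16.

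On the route of lactate and pyruvate, 11 genes were measured, of which 3 fell, 1 rose and 7 showed no call, and their median was 0.21. JEN1, the permease that brings lactate and pyruvate into the cell, fell by 0.81 (limma adjusted p = 0.00122), with levels of 11.25 to 11.50 on the mutant arrays and 11.93 to 12.52 on the parent arrays. JEN1 thus moved opposite to CYB2, on arrays where neither gene's strains overlapped. GLO1, which makes the glyoxalase that starts the conversion of methylglyoxal to D-lactate, rose by 0.78 (limma adjusted p = 0.0261), but the strains overlapped and leaving out any of mutants 1, 3 and 7 or parents 4, 6 and 8 ended this call. GLO2 and GLO4, for the glyoxalases that release D-lactate, differed by 0.25 and -0.53 (limma adjusted p = 0.437 and 0.0591). GLO4 met the background criterion on 2 mutant and 3 parent arrays.

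SER3 and SER33 encode the phosphoglycerate dehydrogenases that also form D-2-hydroxyglutarate, the compound that Dld3 oxidises. SER3 fell by 0.84 (limma adjusted p = 0.0212), a call that ended without mutant 5, mutant 7, parent 2 or parent 4. SER33 fell by 0.47 (limma adjusted p = 0.0154) and met the background criterion on 2 mutant and 3 parent arrays. The mitochondrial pyruvate carrier genes MPC1, MPC2 and MPC3 differed by 0.35, 0.03 and 0.43 and did not pass. MPC1 met the background criterion on 2 mutant and 2 parent arrays.

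Of 7 other targets of the retrograde response, measured beside DLD3, 4 fell, 1 rose and 2 showed no call. Their median was -0.42, and 14.0% of all genes were called lower. CIT2, peroxisomal citrate synthase and the standard reporter of this response, fell by 1.85 (limma adjusted p = 2.93e-05), and PYC1, pyruvate carboxylase, fell by 1.13 (limma adjusted p = 0.000250). ATO3, for an ammonium exporter, was called lower (limma adjusted p = 9.4e-06) but missed the background criterion on all mutant arrays and on parent 8. Its fall is therefore given as a bound, at least 1.64-fold lower, which that p does not test. The bound sets the parent mean, parent 8 included, against the lowest signal well above background, or the probe's own where higher, on each mutant array. The fall of ACO1, by 0.42 (limma adjusted p = 0.0447), was less stable. Its strains overlapped, and its call was lost under 20 of 26 alternatives. IDH1, a subunit of isocitrate dehydrogenase, rose by 0.55 (limma adjusted p = 0.00215), and its partner IDH2 differed by 0.24. Genes for the retrograde regulators RTG1, RTG2, RTG3 and MKS1 did not pass, at 0.38, -0.31, -0.09 and 0.03. RTG1 was above background on no array, and RTG2 and RTG3 each on 2 mutant and 3 parent arrays.

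**Figure D5:**
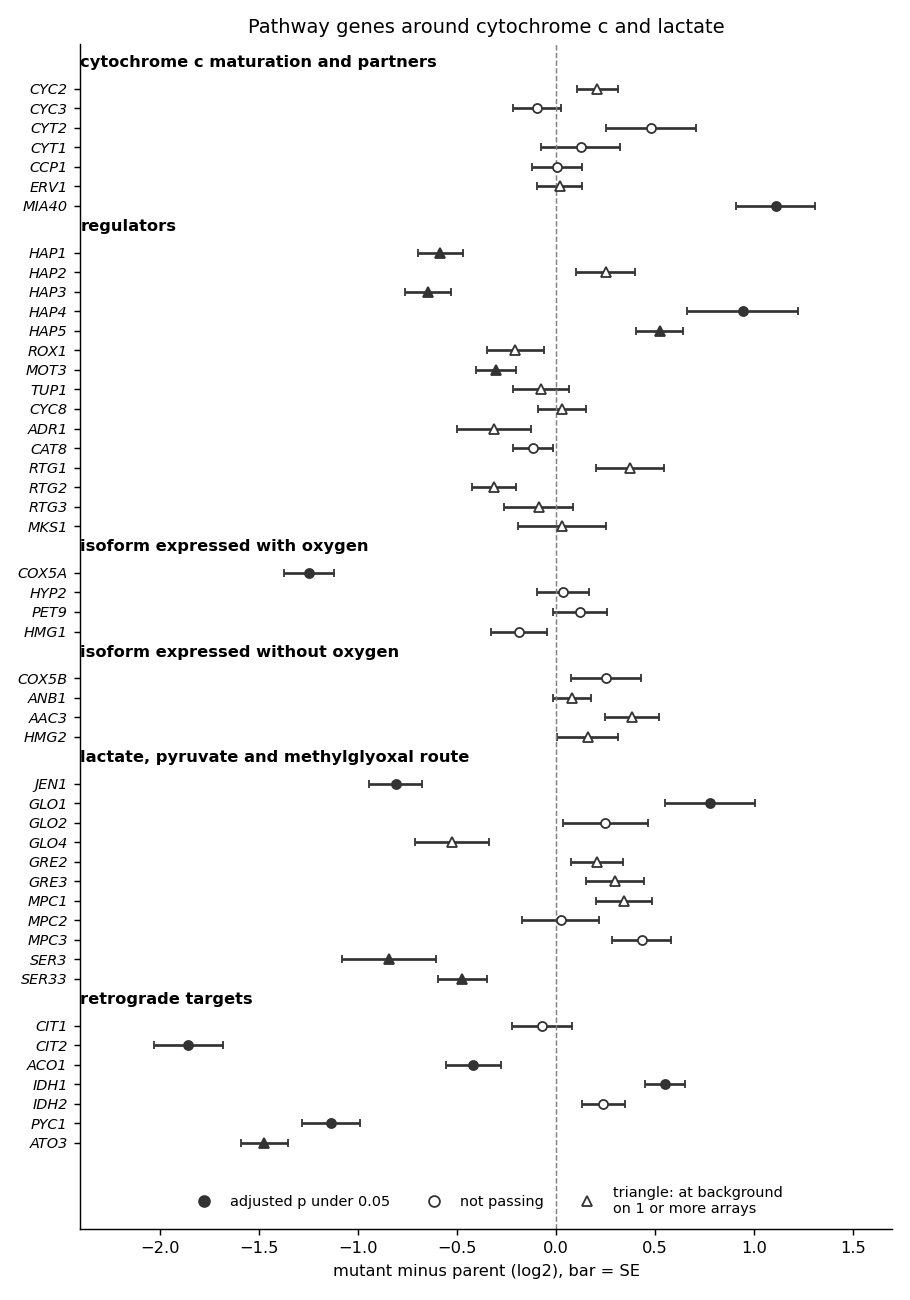
Mutant minus parent difference (log2, bars SE) of genes around cytochrome c and lactate, grouped by role. Filled symbols passed at a limma adjusted p under 0.05 and triangles were at background on at least 1 array. CIT2 lies farthest below 0, at -1.85, and MIA40 farthest above it, at 1.11.

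Of 11 measured genes adjacent to the 6 genes in assembly R64, 2 fell, 1 rose and 8 did not pass, a share close to the 26.6% called over all genes. CYC1 lies between ANB1 and UTR1, CYC7 between UTR2 and UTR4, and these 4 neighbours did not pass, with differences of 0.08 to 0.25. SPC2 beside CYB2 and AIR2 beside DLD1 did not pass either, at 0.11 and 0.18. PAR32, the other neighbour of DLD1, fell by 0.94 (limma adjusted p = 0.000170). Beside DLD2, which rose, YDL177C fell by 0.55 (limma adjusted p = 0.0236) and PCL9 differed by 0.37 without passing. No measured neighbour met the background criterion on every mutant array. PAR32 met it on 2 mutant and 4 parent arrays, PCL9 on 2 and 3, and YDL177C on only 1 and 3. Beside DLD3, which fell, DSF1 rose by 0.66 (limma adjusted p = 0.0405), while RMD6 differed by 0.07. The calls for YDL177C and DSF1 each ended when any of several single arrays was left out, among them parents 2 and 4, and DSF1 differed by 0.42 without mutant 5.

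For each gene the closest profiles were sought among 1535 other genes above background on all 4 arrays of at least 1 strain, by the root mean square difference of levels centred over the 8 arrays. CYC7 lay closest to MIA40 (0.12), followed by HOR7 (0.15) and the maltose permease gene MAL31 (0.17). CYB2 lay closest to ALT1 (0.14), for mitochondrial alanine transaminase, and to PIC2 (0.14), for a mitochondrial carrier of copper and phosphate. DLD1 lay closest to COQ5 (0.10), for a methyltransferase of coenzyme Q synthesis, and next to YDC1 (0.13) and LSC2 (0.15), for a subunit of succinyl-CoA ligase. DLD2 lay closest to ACT1 (0.09), the actin gene, which itself rose by 1.01 (limma adjusted p = 9.63e-05), and next to MRPL40 (0.10) and GDB1 (0.12). DLD3 lay closest to ATP17 (0.07), for a subunit of ATP synthase, and to the ribosomal protein genes RPS7A (0.10) and RPL38 (0.11). CYC1 lay closest to AIM46 (0.10), TMA108 (0.11) and ITR1 (0.13), for a transporter of myo-inositol, none of which passed. The genes nearest DLD3 and CYC1 were dim in the mutant. ATP17 and ITR1 met the background criterion on 3 mutant arrays, and RPS7A, RPL38, AIM46 and TMA108 on 2. These distances describe likeness across 8 arrays of 2 strains and carry no test.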

How the data were processed

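Total RNA of 4 mutant and 4 parent cultures was labelled with Cy5 and read on 8 arrays. Per the file headers, spots were scanned at 635 nm and extracted by GenePix Pro 6.1.0.4. The deposited scanner tables thus give linear, unnormalized spot intensity and local background. The same deposited tables give each spot's signal-to-noise score, a percent of saturated pixels and a flag. The authors' value table, also deposited, gives 1 intensity per probe. Comparison with the scanner values showed a linear, uncentred scale: spot medians after quantile normalization, less a constant near 32.3 units whose choice is unknown. Its column medians were 75.1 to 79.4 on mutant arrays (75.2, 75.1, 78.4, 79.4) and 75.5 to 77.0 on parent arrays (76.6, 76.1, 77.0, 75.5), in array order.

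With R 4.3.3 and limma 3.58.1, normexp (offset 50) corrected the spot medians, and their log2 values were quantile-normalized and averaged over the 2 spots. The offset understates changes of dim genes. The limma fit (lmFit, eBayes) compared strains on all 6256 probes, two-sided, without covariates, with Benjamini-Hochberg adjustment over all of them and calls at 0.05. Gene pairs were compared by an exact two-sided permutation test over arrays. Of the systematic names, 5756 matched assembly R64, which was used only for names, chromosomes and neighbours. Steps were tested on simulated data. Named genes are the 6 genes, up to 4 called genes of each pathway list by smallest adjusted p, and ACO1 and MOT3. Also named are list genes that did not pass where their role bears on the 6 genes, and both genes of each isoform pair. The 3 closest profiles and the adjacent genes are named too. The 6 genes and the lists were chosen with earlier results of these data known. Alternatives covered background, scaling, spots, flags, gain, slide row, array weights, close arrays, the value table and single arrays.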

Additional observations from a re-analysis of the deposited data

Results flagged for a closer look

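Among 12 groups of 4 arrays examined (6 genes in 2 strains), 2 held an array far from the others, both for DLD1, where chance gives about 1 in 20 such groups. Mutant 5 had a DLD1 level of 8.84 on the log2 scale, while mutants 1, 3 and 7 had 9.75 to 9.83. Parent 8 had 8.76, while parents 2, 4 and 6 had 9.08 to 9.11. Mutant 5 and parent 8 were both scanned at gain 700, as was mutant 7, which lay with the other mutant arrays.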

How the results depend on the processing

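No alternative reversed the direction of any of the 6 genes, nor of the 3 gene pairs where the pairs were computed. CYC7, CYB2, DLD2 and DLD3 were called under 22, 23, 23 and 23 of 26 alternatives. With 75th percentile scaling none was called, at 1.04, 0.89, 0.95 and -1.53, and with median scaling none was called, at 0.98, 0.83, 0.90 and -1.59. The same held at gain 700 alone, at 0.94, 0.99, 0.97 and -1.30, where 1 parent array remains and is assumed to vary like the mutant arrays, so that few calls were possible. CYC7 was also not called on its first spot, at 0.67. DLD1 passed in 6 alternatives: 0.64 with the 75th percentile set before the offset (chosen after seeing the data), 0.54 over the 1536 genes detected throughout a strain (fewer genes tested), 0.65 with gain as a block, 0.71 at gain 600 alone, 0.71 with array weights and 0.77 without mutant 5. CYC1 passed, at -0.27, with array weights. Leaving out 1 array at a time gave 0.97 to 1.29 for CYC7, 1.00 to 1.25 for CYB2, 0.44 to 0.77 for DLD1, 0.95 to 1.08 for DLD2, -1.56 to -1.41 for DLD3 and -0.50 to -0.13 for CYC1. The gene pairs ran from 1.28 to 1.65 (CYC7 minus CYC1), -2.74 to -2.35 (DLD3 minus DLD2) and 0.44 to 0.60 (CYB2 minus DLD1) over 16 alternatives. Among these, 75th percentile and median scaling give equal values by construction. Other alternatives, among them single spots and gain 700 alone, were not computed for the pairs. The pair ranges therefore leave out the choice of spot, with which the CYC7 difference went from 0.67 to 1.62. The count of called genes, 1667, was 57 with 75th percentile scaling (0 higher, 57 lower by limma, 760 at an unadjusted p under 0.05), 37 with median scaling (0 higher, 37 lower by limma, 751 unadjusted), 45 at gain 700 (1 higher, 44 lower), 738 of those 1536 genes (310 higher, 428 lower), 1053 with the first spot (433 higher, 620 lower), 870 with the second spot and 3034 with array weights (1653 higher, 1381 lower). Leaving out 1 array at a time gave 1205 to 1701. The median of all genes was 0.21 with 75th percentile and 0.15 with median scaling, against 0.05. With the 75th percentile set before the offset, 1537 genes were called. The cause of these shifts was not tested. The strains share no replicate number to pair by. With slide row, which holds 1 array of each strain, as a block, CYC7, CYB2, DLD2 and DLD3 stayed called, CYC1 and DLD1 did not pass, and 1786 genes were called. Signal over background limits DLD3 on mutant 7.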
